A study of Mus musculus with 8 samples.

Results

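The 10 genes described here encode the calcium release and sarcoplasmic reticulum machinery of skeletal muscle. They are Cacna1s, Ryr1, Jph1, Jph2, Atp2a1, Atp2a2, Sln, Casq1, Casq2 and Pvalb, chosen by name from their known roles, and all 10 are among the 21207 gene symbols that the 8 libraries share. Single-nucleus RNA sequencing was performed on gastrocnemius, a calf muscle of mixed but mainly fast fibres, from wild-type (WT) C57BL/6 mice. Young mice were 3 months old and Old mice were 20 months old. Running mice began at 11 months of age and ran on a treadmill for 2 months, and Sedentary mice did not run. Each of the 4 groups had 2 libraries, 1 taken here as made with 10x droplets (replicate 1) and 1 in a second library set with other barcodes (replicate 2). Whether a library holds nuclei of 1 animal or several was not given in the sources used here, so p-values measure the spread between libraries only.

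In skeletal muscle, an action potential runs down the transverse tubules and moves the voltage sensor, which pulls open the calcium release channel of the facing sarcoplasmic reticulum. Calcium stored in the reticulum on calsequestrin then enters the cytosol and triggers contraction, and pumps return it to the store. Fast and slow fibres are known to use different versions of the pump, of calsequestrin and of the cytosolic calcium buffers, which is one reason why they contract and relax at different speeds.

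On GRCm38, the voltage sensor and release channel genes lie apart, with Cacna1s at chr1:136052750-136119822 (plus strand) and Ryr1 at chr7:29003344-29125179 (minus strand). The junctophilins are Jph1 at chr1:16964560-17097889 (minus strand) and Jph2 at chr2:163336242-163397993 (minus strand). The pump genes and their regulator are Atp2a1 at chr7:126445858-126463108 (minus strand), Atp2a2 at chr5:122453513-122502225 (minus strand) and Sln at chr9:53850164-53854560 (plus strand). The calcium-binding proteins are Casq1 at chr1:172209894-172219868 (minus strand), Casq2 at chr3:102086415-102146514 (plus strand) and Pvalb at chr15:78191114-78206400 (minus strand).

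The libraries held 65280 nuclei, of which 64803 passed the filters. The 10x libraries held between 23327640 and 44389777 UMIs (counted RNA molecules), and the second set held between 4765224 and 9088163. Levels are given as CPM, the UMIs of a gene scaled to the same total in every library, or in every fibre type of a library. Myonuclei were assigned a fibre type from their myosin heavy chain UMIs alone: Myh4 for Type IIb, Myh1 for Type IIx, Myh2 for Type IIa and Myh7 for Slow, with at least 60% of the UMIs of these 4 genes. None of the 10 genes was used in clustering or typing. Between 68.0% and 98.5% of a library's myonuclei received a type. Type IIb nuclei could be summed in 8 libraries, Type IIx and Type IIa nuclei in 7, and Slow nuclei in 3, where they numbered 135 in Old replicate 1, 337 in Sedentary replicate 1 and 42 in Young replicate 2. In the Slow nuclei, Myh4 still made up 3.56%, 5.46% and 23.7% of these myosin UMIs in that order, so the Slow nuclei of Young replicate 2 held the largest share of this Type IIb RNA. Old replicate 2 stood apart from the rest, since 3341 of its 4772 nuclei were in clusters that could not be named.

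Slow nuclei carried a different set of calcium genes from Type IIb nuclei. Atp2a2, Casq2 and Sln were higher in Slow nuclei, and Atp2a1, Casq1, Pvalb, Jph1, Jph2 and Ryr1 were lower, so that 9 of the 10 genes passed the test (edgeR's quasi-likelihood test within libraries, Benjamini-Hochberg adjusted over 11205 genes). Of all genes tested, 10.5% were called higher and 15.7% lower in this comparison. Type IIa nuclei differed from Type IIb nuclei in 9 of the 10 genes, with 2 higher and 7 lower, against 12.5% and 18.2% of all genes. Type IIx nuclei differed in 7, with 1 higher and 6 lower, against 7.3% and 10.3% of all genes. Between Slow and Type IIa nuclei, 3 of the 10 were higher and 1 was lower, against 2.72% and 2.13% of all genes. The median log2 fold change of the 10 genes was -1.02, -0.67, -0.51 and -0.06 in these 4 comparisons, and that of all genes was -0.15, -0.11, -0.11 and -0.05.

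The scaling of the libraries moves these differences. With the RLE scaling in place of TMM, the median of all genes in Slow against Type IIb nuclei went from -0.15 to 0.11. The calls of all genes went from 1180 higher and 1761 lower to 1695 higher and 1003 lower. For Type IIa against Type IIb nuclei the split went from 1399 higher and 2043 lower to 1759 and 1526, and for Type IIx from 818 and 1159 to 1054 and 945. For Slow against Type IIa nuclei it went from 305 and 239 to 423 and 171. The numbers of the 10 genes called were then 8, 8, 6 and 4. DESeq2 called 9, 8, 6 and 4 of the 10. Of all genes, it called 1644 higher and 918 lower in Slow and 1645 and 1394 in Type IIa against Type IIb nuclei. For Type IIx against Type IIb nuclei these numbers were 917 and 810, and for Slow against Type IIa nuclei 361 and 162. The low-count filter kept the same 11205 genes in these fits.

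**Figure D1:**
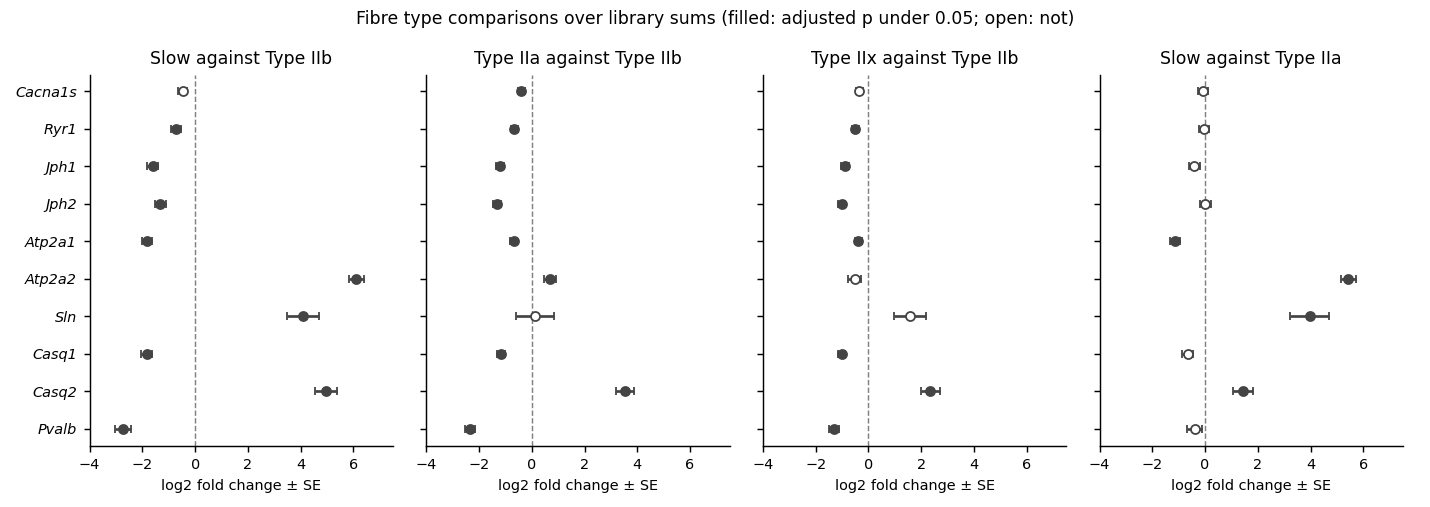
Log2 fold change of the 10 genes in 4 fibre type comparisons, with the standard error from edgeR's fit as bars; filled points have an adjusted p under 0.05. Atp2a2 (6.11), Casq2 (4.97) and Sln (4.10) lie far to the right of 0 in Slow against Type IIb nuclei, whereas the other 7 genes lie to its left.

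The voltage sensor and the release channel had the smallest log2 fold changes of the 10 genes in Slow against Type IIb nuclei. Cacna1s encodes the pore subunit of the voltage-sensing calcium channel of the transverse tubule. In Type IIb nuclei it ranged from 262 to 508 CPM with a median of 377. In Slow nuclei it stood at 227 CPM in Old replicate 1, 239.7 in Sedentary replicate 1 and 517 in Young replicate 2. The Slow value of Young replicate 2 lay above every Type IIb value, the other 2 Slow values lay below every one, and the difference did not pass the test (log2 fold change -0.47 ± 0.18 SE, adjusted p = 0.0525). It passed in Type IIa against Type IIb nuclei (-0.40 ± 0.13, adjusted p = 0.0160), although the levels overlapped and 3 of 7 libraries showed the opposite direction in plain CPM. That call was kept in 11 of 17 alternatives and was lost without Old replicate 1 (adjusted p = 0.0592) and without Young replicate 1 (adjusted p = 0.0544). With the 10x libraries alone, Cacna1s was also called lower in Slow than in Type IIb nuclei (-0.61, adjusted p = 0.00400), as it was without Young replicate 2 (-0.68, adjusted p = 0.00695), whereas with the second set alone its log2 fold change was 0.22 and not called.

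Ryr1 encodes the calcium release channel of the sarcoplasmic reticulum. It ranged from 2386 to 4126 CPM with a median of 3129 in Type IIb nuclei. Across Type IIa nuclei it ranged from 1849 to 2800.3 CPM with a median of 2190.0, and in Slow nuclei it was 1939 CPM in Old replicate 1, 2122 in Sedentary replicate 1 and 1883 in Young replicate 2. All 3 Slow values lay below all 8 Type IIb values, while the Type IIa and Type IIb values overlapped. Ryr1 was lower than in Type IIb nuclei in Slow (-0.71 ± 0.19 SE, adjusted p = 0.00474), Type IIa (-0.67 ± 0.14, adjusted p = 1.86e-04) and Type IIx nuclei (-0.50 ± 0.13, adjusted p = 0.00677). In plain CPM the log2 differences within libraries were smaller than the fitted ones in Slow (-0.65 to -0.29) and Type IIa nuclei (-0.56 to -0.19). The call in Slow nuclei was kept in 13 of 17 alternatives. It was lost with the RLE scaling (-0.38, adjusted p = 0.0734), without Young replicate 2 (adjusted p = 0.0641) and with the dominant myosin gene at 80% (adjusted p = 0.0592). It was also lost with the second set alone (-0.98), where only Young replicate 2 has a Slow sum. The call in Type IIx nuclei was lost without Sedentary replicate 1 (adjusted p = 0.0512) and with the second set alone (adjusted p = 0.632). Between Slow and Type IIa nuclei the difference was -0.05 ± 0.19 and did not pass the test (adjusted p = 0.950).

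Jph1 and Jph2 encode junctophilins, which hold the transverse tubule and the sarcoplasmic reticulum together at the triad. Jph1 ranged from 913 to 3543 CPM with a median of 1677 in Type IIb nuclei, and from 468 to 1286 CPM with a median of 1019.8 in Type IIa nuclei. Its Slow values were 658 CPM in Old replicate 1, 716 in Sedentary replicate 1 and 546 in Young replicate 2. The Slow values lay below every Type IIb value, and Jph1 was lower in Slow (-1.61 ± 0.21 SE, adjusted p = 2.93e-07), Type IIa (-1.20 ± 0.15, adjusted p = 4.17e-08) and Type IIx nuclei (-0.88 ± 0.15, adjusted p = 2.03e-05). In plain CPM, Jph1 was lower in Type IIa than in Type IIb nuclei in 7 of 7 libraries, by 0.42 to 1.56 on the log2 scale. For Slow nuclei the plain CPM difference ran from -1.31 to -1.25 within libraries, smaller than the fitted one.

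Jph2 ranged from 294 to 1299.9 CPM with a median of 593 in Type IIb nuclei. In Slow nuclei it was 326 CPM in Old replicate 1, 280.2 in Sedentary replicate 1 and 254 in Young replicate 2. The Slow and Type IIb values overlapped over both library sets, though not within either set. Jph2 was lower in Slow (-1.32 ± 0.21 SE, adjusted p = 5.45e-06), Type IIa (-1.32 ± 0.15, adjusted p = 4.46e-09) and Type IIx nuclei (-1.02 ± 0.14, adjusted p = 1.49e-06). With the second library set alone, none of these 3 differences passed the test (adjusted p = 0.337, 0.130 and 0.510). As both junctophilins were lower together, the Jph2 share of their summed UMIs moved little, from 15.8% to 32.7% in Type IIb nuclei to between 28.1% and 33.2% in Slow nuclei.

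The calcium pumps showed the clearest exchange. Atp2a1 encodes SERCA1, the pump of fast fibres, and Atp2a2 encodes SERCA2, the pump of slow fibres and heart, whose other isoform is found in most cells. Atp2a1 ranged from 2996 to 7139.9 CPM with a median of 5129 in Type IIb nuclei. In Slow nuclei it was 979 CPM in Old replicate 1, 1037 in Sedentary replicate 1 and 1873 in Young replicate 2. Every Slow value lay below every Type IIb value, and Atp2a1 was lower by 1.83 ± 0.20 (log2, SE, adjusted p = 5.72e-09). In plain CPM the difference of Slow from Type IIb nuclei ran from -1.72 to -1.48 within libraries, smaller than the fitted one. It was also lower in Type IIa (-0.68 ± 0.13, adjusted p = 1.22e-04) and Type IIx nuclei (-0.38 ± 0.13, adjusted p = 0.0432). The last of these calls was kept in 8 of 17 alternatives. It was lost with RLE scaling, with DESeq2 and without replicate 1 of any group or Sedentary replicate 2, where the adjusted p ran from 0.104 to 0.175.

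Atp2a2 ranged from 9.62 to 332 CPM with a median of 43.0 in Type IIb nuclei, and its Slow values were 3974 CPM in Old replicate 1, 3316 in Sedentary replicate 1 and 7920.4 in Young replicate 2. In the Type IIb nuclei of the second set it lay between 59.7 and 332 CPM, against 9.62 to 26.2 in the 10x libraries. All Slow values lay far above all Type IIb and all Type IIa values. Atp2a2 was higher in Slow than in Type IIb nuclei by 6.11 ± 0.29 (log2, SE, adjusted p = 3.87e-17) and higher than in Type IIa nuclei by 5.43 ± 0.29 (adjusted p = 5.89e-16). Within libraries, the Slow excess over Type IIb ranged from 4.58 in Young replicate 2 to 7.24 in 3 of 3 libraries. Type IIa nuclei exceeded Type IIb nuclei by only 0.68 ± 0.24 (adjusted p = 0.0255), a call kept in 9 of 17 alternatives. It was lost without replicate 1 of any group or Sedentary replicate 2, where the adjusted p ran from 0.0516 to 0.103. Type IIx nuclei did not pass the test (-0.52 ± 0.25, adjusted p = 0.162).

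Set against the sum of both pumps, Atp2a2 made up 80.2% of the UMIs in Slow nuclei of Old replicate 1, 76.2% in Sedentary replicate 1 and 80.9% in Young replicate 2. In Type IIb nuclei the same share ran from 0.18% to 5.95%, in Type IIx nuclei from 0.09% to 3.15% and in Type IIa nuclei from 0.88% to 7.51%. No share of a fast type came near that of Slow nuclei. Such shares are of UMIs, without a correction for gene length, and are read here only as differences between fibre types. After thinning each nucleus to 500 UMIs, Atp2a2 was detected in 83.7%, 72.7% and 88.1% of the Slow nuclei of these 3 libraries, and in 0.340% to 11.05% of Type IIb nuclei. Without thinning, at median depths of 3958, 2154 and 1782.5 UMIs, it was detected in 98.5%, 97.3% and 95.2% of these Slow nuclei, and in 2.66% to 27.0% of Type IIb nuclei at median depths of 904 to 3755 UMIs.

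**Figure D2:**
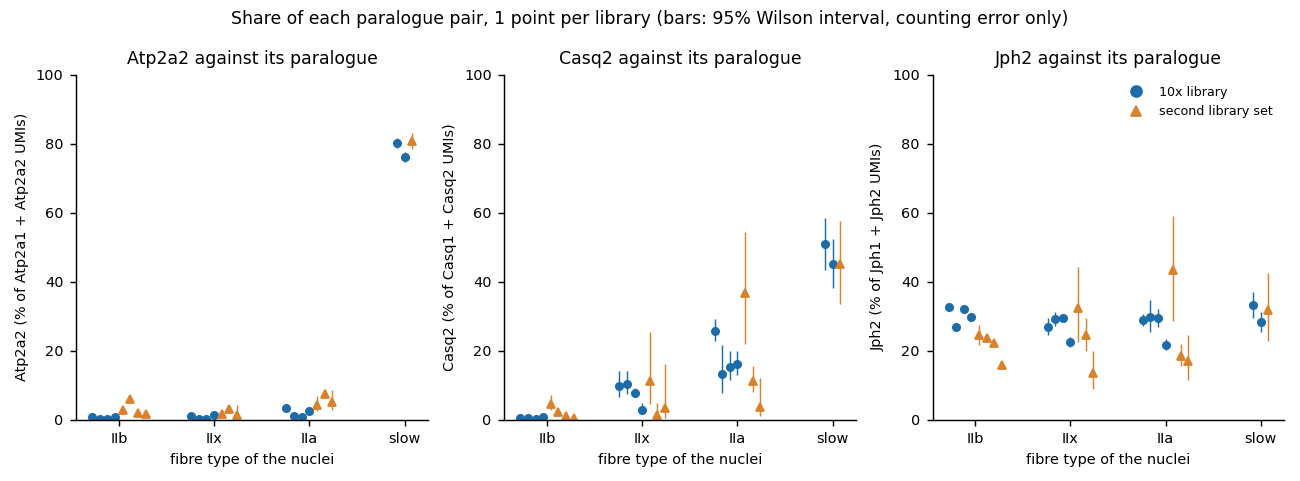
Share of the second paralogue in the summed UMIs of each pair (y axis, percent), 1 point per library and fibre type, with bars for the 95% Wilson interval of counting error. The Atp2a2 share is 76.2% to 80.9% in Slow nuclei and at most 7.51% in the fast types, the Casq2 share is 3.51% to 36.7% in Type IIa and 45.2% to 50.9% in Slow nuclei, and the Jph2 share stays within overlapping ranges.

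Sln encodes sarcolipin, a small membrane protein that binds SERCA and lowers its efficiency of calcium uptake. It was rarely captured: the Slow nuclei held 6 UMIs in Old replicate 1, 11 in Sedentary replicate 1 and 14 in Young replicate 2. These correspond to 10.2 CPM in Old replicate 1, 12.7 in Sedentary replicate 1 and 137 in Young replicate 2. In Type IIb nuclei it ranged from 0.0423 to 8.28 CPM with a median of 2.14. The Slow values lay above all Type IIb values, with a log2 fold change of 4.10 ± 0.61 (SE, adjusted p = 2.23e-06). Sln was also higher in Slow than in Type IIa nuclei (3.97 ± 0.74, adjusted p = 4.63e-04), where 8 UMIs were counted over 7 libraries. Neither Type IIa (0.13 ± 0.73, adjusted p = 0.928) nor Type IIx nuclei (1.57 ± 0.60, adjusted p = 0.0662) passed the test against Type IIb nuclei. The latter were called without Old replicate 1 (1.95, adjusted p = 0.0191) and without Young replicate 2 (2.07, adjusted p = 0.0138).

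Casq1 and Casq2 encode the calsequestrins, the calcium-binding proteins of the reticulum lumen, of which CASQ1 is the form of fast fibres and CASQ2 that of heart and slow fibres. The 250 bases before their annotated starts are shown because the RNAs of these paralogues moved in opposite directions across the fibre types. The sequences are from RefSeq on GRCm38.p6, 5′ to 3′ on the gene's strand. Capitals mark matches on both strands to the E-box CANNTG, the MCAT motif CATTCC, the NFAT core GGAAA and the CArG box. A MEF2 site was also searched, in a form not given here, and gave 0 matches in these stretches. Casq1 lies at chr1:172219896-172220145 on the minus strand and Casq2 at chr3:102086165-102086414 on the plus strand.
Casq1: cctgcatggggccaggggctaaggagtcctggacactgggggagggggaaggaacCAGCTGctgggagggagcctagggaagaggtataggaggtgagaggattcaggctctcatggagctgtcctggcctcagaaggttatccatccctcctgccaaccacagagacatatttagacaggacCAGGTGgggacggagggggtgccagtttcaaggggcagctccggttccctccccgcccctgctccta
Casq2: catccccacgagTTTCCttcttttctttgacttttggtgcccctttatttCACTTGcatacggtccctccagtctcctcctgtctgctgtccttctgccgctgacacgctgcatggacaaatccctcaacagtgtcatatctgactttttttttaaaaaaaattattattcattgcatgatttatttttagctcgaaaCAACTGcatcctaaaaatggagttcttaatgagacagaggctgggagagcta
The Casq1 stretch holds E-boxes that begin 195 and 67 bases before the start. The Casq2 stretch holds E-boxes that begin 200 and 52 bases before the start and 1 NFAT core at 238, with no overlap between motifs. In the 27018 promoters of the table, an E-box was present in 66.1% and an NFAT core in 55.6%, so these matches are common. An MCAT motif was present in 12.6%, a CArG box in 1.4% and a MEF2 site in 0.518%. Of the 10 genes, 7 have an entry in the table, and Atp2a2, Sln and Jph1 do not.

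Casq1 ranged from 364 to 1086 CPM with a median of 785 in Type IIb nuclei. Its Slow values were 137 CPM in Old replicate 1, 118 in Sedentary replicate 1 and 332 in Young replicate 2. The groups did not overlap, and Casq1 was lower in Slow (-1.83 ± 0.21 SE, adjusted p = 1.34e-08), Type IIa (-1.17 ± 0.14, adjusted p = 1.71e-08) and Type IIx nuclei (-1.02 ± 0.13, adjusted p = 5.65e-07). In plain CPM the Type IIa value was below the Type IIb value in 7 of 7 libraries, by 0.26 to 1.62 on the log2 scale. For Slow nuclei the plain CPM difference ran from -1.62 to -1.38 within libraries, smaller than the fitted one. Slow against Type IIa nuclei did not pass the test (-0.66 ± 0.21, adjusted p = 0.0531), except without Running replicate 1 (-0.73, adjusted p = 0.0360).

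Casq2 was higher in each of the other fibre types than in Type IIb nuclei. It ranged from 2.06 to 24.9 CPM with a median of 4.52 in Type IIb nuclei, from 5.57 to 52.6 CPM with a median of 18.5 in Type IIx nuclei and from 25.0 to 245 CPM with a median of 53.9 in Type IIa nuclei. In Slow nuclei it was 142 CPM in Old replicate 1, 97.3 in Sedentary replicate 1 and 273 in Young replicate 2, on 83, 84 and 28 UMIs. Slow and Type IIa values lay above all Type IIb values, whereas Slow and Type IIa values overlapped each other. Relative to Type IIb nuclei, Casq2 was higher by 2.35 ± 0.37 in Type IIx (log2, SE, adjusted p = 7.97e-06), by 3.54 ± 0.34 in Type IIa (adjusted p = 1.64e-10) and by 4.97 ± 0.41 in Slow nuclei (adjusted p = 1.42e-11). In Type IIa nuclei the excess was seen in 7 of 7 libraries, from 1.87 to 5.18. The highest Type IIa value, in Old replicate 2, rests on 11 UMIs, and with the second set alone the Type IIx difference was -0.056 and not called. Slow nuclei exceeded Type IIa nuclei by 1.42 ± 0.38 (adjusted p = 0.0199), a call that was lost without Sedentary replicate 1 (adjusted p = 0.208) and with the second set alone (adjusted p = 0.183).

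In Slow nuclei, Casq2 made up 50.9% of calsequestrin UMIs in Old replicate 1, 45.2% in Sedentary replicate 1 and 45.2% in Young replicate 2. The same share was 0.25% to 4.56% in Type IIb, 1.32% to 11.1% in Type IIx and 3.51% to 36.7% in Type IIa nuclei.

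Pvalb encodes parvalbumin, a soluble buffer that takes up cytosolic calcium in fast fibres and speeds relaxation. RefSeq lists 2 starts, whose upstream 250 bases lie at chr15:78206401-78206650 (start 1) and chr15:78204238-78204487 (start 2) on the minus strand. They are shown with the same motifs in capitals because Pvalb had the largest fall of the 10 genes in Slow against Type IIb nuclei.
Pvalb start 1: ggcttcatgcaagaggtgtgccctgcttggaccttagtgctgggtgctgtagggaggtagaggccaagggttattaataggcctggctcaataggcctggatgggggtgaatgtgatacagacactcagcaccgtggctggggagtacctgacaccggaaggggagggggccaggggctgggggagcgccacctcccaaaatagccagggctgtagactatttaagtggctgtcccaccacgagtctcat
Pvalb start 2: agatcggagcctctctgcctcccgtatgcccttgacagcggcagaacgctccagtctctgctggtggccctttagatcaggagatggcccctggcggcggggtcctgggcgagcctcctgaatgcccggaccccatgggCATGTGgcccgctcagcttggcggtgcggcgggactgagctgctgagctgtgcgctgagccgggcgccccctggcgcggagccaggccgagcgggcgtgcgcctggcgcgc
The first stretch holds no match to the E-box, the MCAT motif, the NFAT core or the CArG box, and the second holds 1 E-box that begins 111 bases before the start. Pvalb ranged from 459.8 to 3248 CPM with a median of 1705 in Type IIb nuclei, with 459.8 to 1191 in the 10x libraries and 2220.0 to 3248 in the second set. In Type IIa nuclei it ranged from 75.1 to 1236 CPM with a median of 172, and in Slow nuclei it was 49.5 CPM in Old replicate 1, 66.0 in Sedentary replicate 1 and 946 in Young replicate 2. The types overlapped across the library sets and did not overlap within either set for Slow against Type IIb nuclei. Pvalb was lower than in Type IIb nuclei in Slow (-2.73 ± 0.30 SE, adjusted p = 9.11e-09), Type IIa (-2.34 ± 0.20, adjusted p = 1.51e-11) and Type IIx nuclei (-1.30 ± 0.19, adjusted p = 2.62e-06). In plain CPM the difference of Type IIa from Type IIb nuclei ran from -2.93 to -0.88 (log2) and was negative in 7 of 7 libraries. The difference between Slow and Type IIa nuclei did not pass the test (-0.39 ± 0.29, adjusted p = 0.567).

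**Figure D3:**
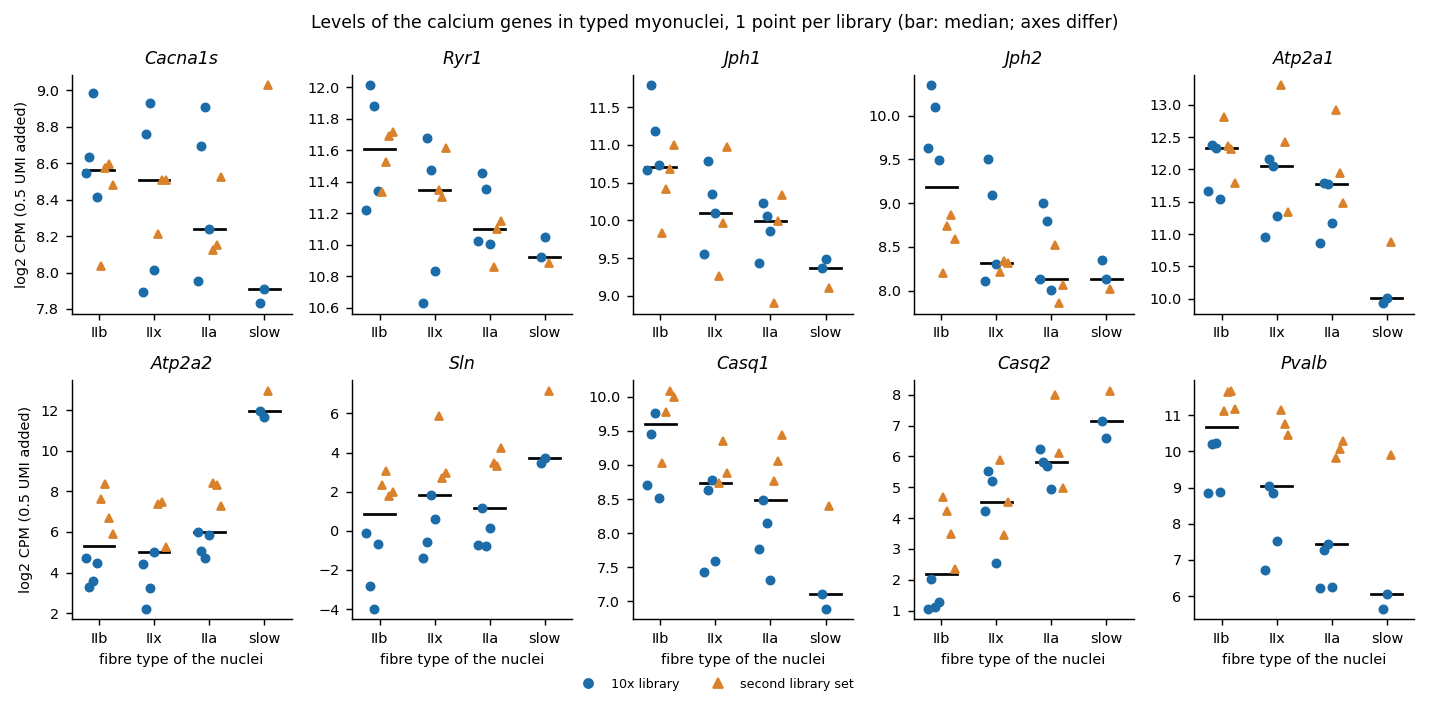
Log2 CPM of each gene (y axis, with 0.5 UMI added, scales differ) in the nuclei of each fibre type, 1 point per library and a bar at the median. Atp2a2 in the 3 Slow sums lies above every fast sum, the medians of Casq2 climb from Type IIb through Type IIx and Type IIa to Slow nuclei, and those of Pvalb, Casq1, Jph1 and Ryr1 step down in the same order.

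Some genes followed the pattern of these members over the 25 library by fibre type sums, after centring on each library (Pearson's r over 25 points that share libraries, given as a description among 6507 genes). Atp2a2 was most like Tnnc1, the slow and cardiac troponin C (r = 0.973), Myh7 (r = 0.971), which was itself used for typing, and Tpm3, a slow tropomyosin (r = 0.957). Pvalb was most like Actn3, the alpha-actinin of fast fibres (r = 0.977), Maf, a transcription factor (r = 0.968), and Sox6, a transcription factor (r = 0.965). Casq1 was most like Prkag3, an AMP kinase subunit of fast muscle (r = 0.919), Slc4a4, a bicarbonate cotransporter (r = 0.914), and Sox6 (r = 0.909). Casq2 was most like Homer2, a scaffold protein (r = 0.958), Nt5c2, a nucleotidase (r = 0.948), and Idh2, the mitochondrial isocitrate dehydrogenase (r = 0.938). Atp2a1 was most like Gm26740 (r = 0.938), Myom2, a protein of the fast fibre M-band (r = 0.919), and Eno3, the muscle enolase (r = 0.915). Sln was below the level required for this comparison.

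The 10 genes were then followed through the other nuclear classes of the 10x libraries, each as a percentage of its CPM in the myonuclei of the same library. Over 11 classes outside the muscle fibre, the median of Ryr1 was 10.8% to 29.0%, that of Cacna1s 12.4% to 35.1% and that of Atp2a1 12.9% to 34.5%. The giant sarcomere gene Ttn, which these classes do not use, stood at 10.6% to 32.4% and Myh4 at 15.1% to 36.2% in the same classes. Jph1 was at 14.9% to 33.0%. The medians of Ryr1, Cacna1s, Atp2a1 and Jph1 outside the fibre thus lay within the range spanned by Ttn and Myh4 over all these classes and are not read as expression. Within a single class this did not always hold. In B cells Cacna1s was at 35.1%, against 25.1% for Ttn and 32.4% for Myh4. Jph2 ran from 8.97% to 38.0%, with the highest median in nuclei like pericytes or smooth muscle, where Ttn was at 32.4% and Myh4 at 35.9%. Casq1 was at 15.6% to 41.3% and Pvalb at 22.2% to 53.1%. The highest medians of Casq1 and Pvalb lay above those of Ttn and Myh4, and what this reflects was not tested. Nuclei of the myotendinous junction, where fibres meet the tendon, carried Ryr1 at 99.8% of the level in myonuclei, and those of the neuromuscular junction at 96.0%.

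Casq2 departed from this background. In nuclei like pericytes or smooth muscle, the contractile cells of vessel walls, Casq2 was at 276 CPM in Old replicate 1, 309 in Young replicate 1, 187 in Running replicate 1 and 145 in Sedentary replicate 1, on 56, 147, 60 and 29 UMIs. The myonuclei of these libraries carried between 6.19 and 15.7 CPM, so the vessel wall nuclei were higher in 4 of 4 libraries. In the other classes outside the fibre the median was between 0 and 123% of the level in myonuclei. After thinning to 500 UMIs, Casq2 was detected in 5.97% to 13.9% of pericyte or smooth muscle nuclei, in 4.75% to 7.14% of Slow nuclei and in 0.0651% to 0.885% of Type IIb nuclei. The unthinned shares were 18.5% to 48.8%, 19.9% to 42.2% and 0.543% to 3.03%. Thinning left out 1 nucleus of the first class and none of the typed nuclei of these kinds. For Atp2a2 the level in the myonuclei themselves varied, from 9.65 CPM in Young and 14.2 in Running to 139 in Old and 222 in Sedentary replicate 1. The classes outside the fibre ran from 442% to 2897% of it in the first 2 libraries, and from 35.1% to 313% in the last 2. Their medians over libraries, from 255% to 818%, therefore rest on the libraries with little Atp2a2 in myonuclei. The pericyte or smooth muscle nuclei held 434, 280.0, 187 and 261 CPM of it in the order of libraries above, more than the myonuclei in 4 of 4. These class values are descriptions without a test.

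**Figure D4:**
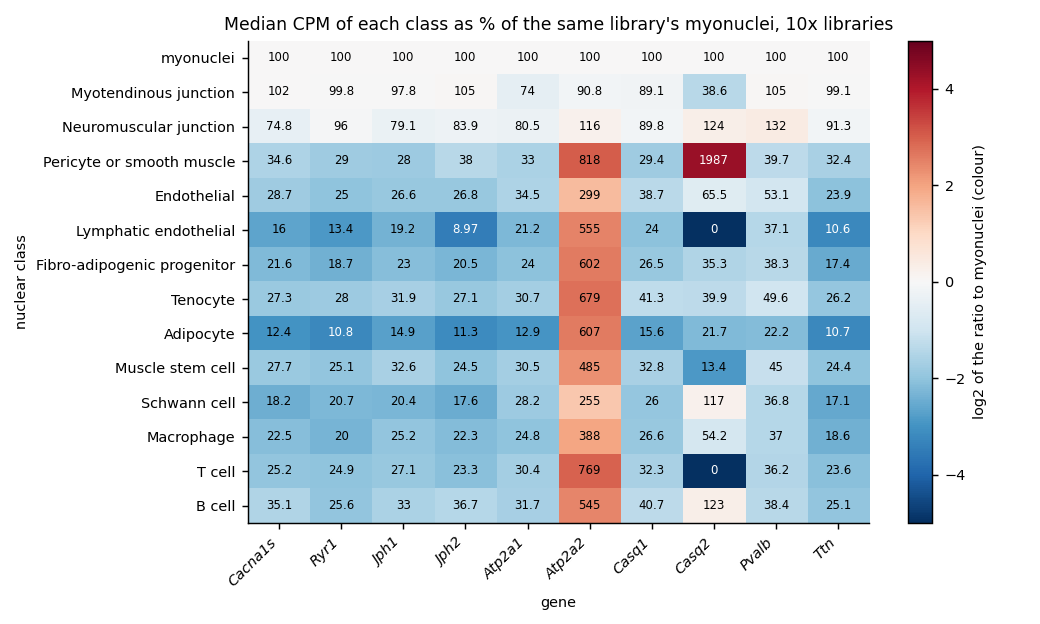
Median CPM of each gene in every named class of nuclei as a percentage of the myonuclei of the same library, over the 10x libraries, with color for the log2 ratio. Ttn is shown as a fibre gene for comparison, and the source of fibre RNA in the other classes was not tested. Most fibre genes stand at a low, even level outside the fibre, whereas Casq2 reaches 1987% in pericyte or smooth muscle nuclei. The Atp2a2 medians lie above 100% in all 11 classes outside the fibre, although its values in single libraries run from 35.1% to 2897%.

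Old and Young muscle were compared to ask whether the calcium genes change with age. No gene passed the test over whole libraries in edgeR (0 of 20320, 0% of all genes) or in DESeq2, and thus none of the 10. At an unadjusted p under 0.05, edgeR gave 557 genes, among them 7 of the 10, all lower in Old, and DESeq2 gave 1174 genes with 6 of the 10. The median log2 fold change of the 10 genes was -1.16 and that of all genes was 0.19. In whole libraries, fewer nuclei of a type and less RNA per nucleus cannot be told apart. The share of nuclei in clusters named as myonuclei was 45.2% and 24.6% in the Old libraries (replicate 1 first) against 60.9% and 89.1% in the Young libraries. In Old replicate 2, 70.0% of nuclei were in clusters that could not be named, so its 24.6% is not read as a loss of myonuclei. With all its nuclei typed whatever their cluster, 2804 were Type IIb, against 678 among the named myonuclei.

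Pvalb had the smallest p. It stood at 289.9 and 1259 CPM in the Old libraries and at 873 and 2528 in the Young libraries, replicate 1 first. The Old value was lower within each set, while the groups overlapped across the sets (log2 fold change -1.73 ± 0.49 SE, unadjusted p = 0.00776, adjusted p = 0.693). Jph1 stood at 983 and 624.9 CPM in Old and 2491 and 1210.3 in Young libraries. Neither this nor any other of the 10 passed the adjustment. The number of the 10 with an unadjusted p under 0.05 fell without Old replicate 2, the library with mostly unnamed nuclei. It also fell without either Young library and without either Running library. The numbers of all genes at such a p in those fits are not given here, so the fall is not read as particular to the 10.

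The comparison within Type IIb nuclei leaves the other fibre types out. Here edgeR again called 0 of 16987 genes (0% of all genes), and 5 of the 10 had an unadjusted p under 0.05 among 756 genes. DESeq2 called 5 genes, none of them among the 10. The number of the 10 with such a p fell without Young replicate 1 and without Old replicate 2. For those fits too, the numbers of all genes are not given here. In Type IIb nuclei, Pvalb stood at 459.8 and 2220.0 CPM in Old and at 1181 and 3176 in Young libraries (-1.14 ± 0.31 SE, unadjusted p = 0.00567, adjusted p = 0.969). The Old value was the lower one within each set. Casq1 was at 416 and 521 CPM in Old against 702 and 875 in Young libraries (-0.94 ± 0.33, adjusted p = 0.969). Jph1, Jph2 and Ryr1 had log2 fold changes of -1.10, -0.82 and -0.70 in the same fit, none of which passed. Atp2a1 was lower in Old in the 10x set by 0.72 and higher in the second set by 0.44.

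Atp2a2 and Sln went opposite ways in the library sets. Over whole libraries, Atp2a2 stood at 141 CPM in Old and 61.8 in Young of the 10x set, and at 267 and 581 in the second set. Slow nuclei made up 2.65% of typed nuclei in Old and 0% in Young of the 10x set (0 of 7081, which allows a share of up to 0.0424%), and 2.0% in Old and 1.37% in Young of the second set. These Slow nuclei held 42.6% and 20.9% of the Atp2a2 UMIs of the Old libraries, replicate 1 first, and 15.7% of those of Young replicate 2. The part of Slow nuclei in the difference was not tested. Within Type IIb nuclei, Atp2a2 also differed by 1.44 in the 10x set and by -0.74 in the second set (Old minus Young, log2 CPM). Neither Atp2a2 (-0.67 ± 0.79, adjusted p = 0.723) nor Sln (0.26 ± 0.93, adjusted p = 0.903) nor Casq2 (-0.15 ± 0.65, adjusted p = 0.921) passed the test over whole libraries.

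Running and Sedentary muscle were compared to ask whether exercise changes these genes. Over whole libraries, edgeR and DESeq2 both called 0 of 20320 genes (0% of all genes). At an unadjusted p under 0.05 there were 98 genes by edgeR and 392 by DESeq2, none of them among the 10. Pvalb stood at 911 and 3129 CPM in Running and at 302 and 2125 in Sedentary libraries. It was higher in Running within each set, the groups overlapped across sets, and the test was not passed (1.01 ± 0.48 SE, unadjusted p = 0.0697, adjusted p = 1.0). With only the 4 Running and Sedentary libraries in the fit, Pvalb was called and the others of the 10 were not (1.17, adjusted p = 0.0320). That p was the lowest over 14 alternatives, of which the highest was 1.0. The share of all genes called in this fit is not given here. The call is therefore not read as particular to Pvalb. Atp2a1 stood at 4043 and 4904 CPM in Running and 2257 and 3312 in Sedentary libraries, and the test was not passed (0.72 ± 0.42, adjusted p = 1.0).

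In Type IIb nuclei, Running against Sedentary again gave 0 of 16987 genes called by edgeR (0% of all genes) and 0 by DESeq2, with 312 and 359 genes at an unadjusted p under 0.05. The 1 gene of the 10 among them was Pvalb, at 1191 and 3248 CPM in Running and 470.5 and 2291 in Sedentary libraries (0.87 ± 0.31 SE, unadjusted p = 0.0208, adjusted p = 1.0). The Running value of Casq1 exceeded the Sedentary one by 1.25 (log2 CPM) among 10x libraries and by 0.09 among the others, and the test was not passed. Atp2a2 over whole libraries was 45.4 CPM in Running and 192 in Sedentary of the 10x set, and 132 and 114 in the second set. Slow nuclei were 0.10% and 6.59% of typed nuclei in these 10x libraries and 0.03% and 0.29% in the second set. In Sedentary replicate 1 the Slow nuclei held 2864 of the 4437 Atp2a2 UMIs. The part of that share in the difference was not tested. Of genes given a known 2-fold difference between Old and Young libraries in a test with generated counts, 0% were recovered, and of those with 8-fold, 4%. For Slow against Type IIb nuclei the same test recovered 52% and 90%.

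**Figure D5:**
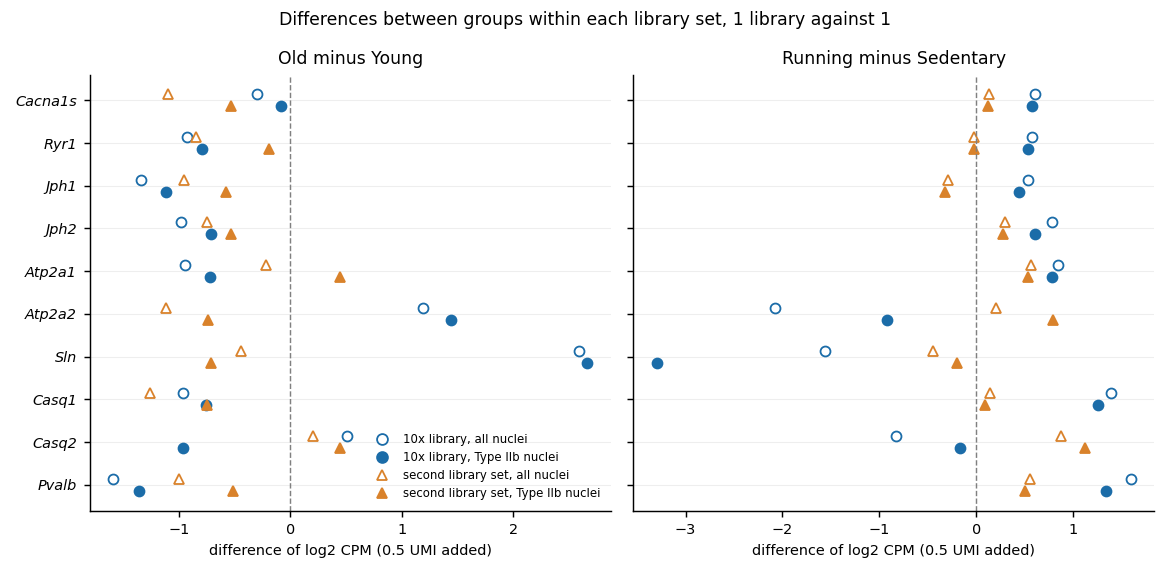
Difference of log2 CPM (x axis, 0.5 UMI added) between 1 library and 1 other of the same library set, for all nuclei and for Type IIb nuclei, with no error bars as each point rests on 1 library a group. Pvalb, Jph1, Jph2, Ryr1, Casq1 and Cacna1s lie to the left of 0 in all 4 Old minus Young points, whereas Atp2a1, Atp2a2, Casq2 and Sln lie on both sides. The points for all nuclei and for Type IIb nuclei of a set come from the same libraries and are not independent.

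A wider list of 66 other calcium handling genes in 9 roles showed where else the fibre types differed. Of the 61 that could be tested between fibre types, 8 were higher and 20 lower in Slow than in Type IIb nuclei, where 10.5% of all genes tested were higher and 15.7% lower. In Type IIa nuclei 9 were higher and 29 lower (12.5% and 18.2% of all genes), in Type IIx nuclei 3 and 22 (7.3% and 10.3%), and in Slow against Type IIa nuclei 3 and 5 (2.72% and 2.13%). The numbers higher than in Type IIb nuclei were thus near the shares of all genes. Of the subunits around the voltage sensor, 4 of 4 were lower in Type IIa than in Type IIb nuclei, among them Cacng1, its gamma subunit (-1.60 ± 0.19 SE, adjusted p = 2.39e-08). Of 14 partners of the release channel, 8 were lower and none higher in Type IIa nuclei (18.2% and 12.5% of all genes), among them the calmodulin gene Calm2 (-1.71 ± 0.17, adjusted p = 2.71e-10). Stim2, a calcium sensor of the reticulum that opens store-operated channels, was lower in Slow (-2.98), Type IIa (-2.96) and Type IIx nuclei (-1.60). Slc8a1, the sodium-calcium exchanger of the cell membrane, was lower in Slow (-2.74) and Type IIa nuclei (-1.69).

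Fewer genes of the list were higher outside Type IIb nuclei. Rcan2, an inhibitor of the phosphatase calcineurin, was higher in Slow (2.65 ± 0.30 SE), Type IIa (2.30 ± 0.24) and Type IIx nuclei (1.83 ± 0.24). Slc8b1, the mitochondrial sodium-calcium exchanger, was higher in Slow (2.44 ± 0.25) and Type IIa nuclei (1.60 ± 0.20), where 4 of 8 mitochondrial calcium genes were higher and 1, Micu3, was lower (12.5% and 18.2% of all genes). Nfatc2, a transcription factor activated by calcineurin, was higher in Slow than in Type IIb nuclei (1.15 ± 0.20). Pln, phospholamban, an inhibitor of SERCA, was higher in Type IIx nuclei (0.80 ± 0.22, adjusted p = 0.00678), a call lost without Running replicate 1 (adjusted p = 0.0646) or Sedentary replicate 1 (adjusted p = 0.176). Strit1, the small protein DWORF that activates SERCA, was counted 46 times in Slow nuclei of Old replicate 1, 39 times in Sedentary replicate 1 and 7 times in Young replicate 2. These counts correspond to 78.6, 45.2 and 68.3 CPM, and Type IIa nuclei held 0 Strit1 UMIs of 6403427. Pooled over libraries, its Slow level was about 127 times a floor of 3 counts over the Type IIa nuclei (0.468 CPM). Outside Slow nuclei no sum exceeded 5.20 CPM, so Strit1 passed the filter on low counts only through the Slow sums. Its place among the listed genes called higher in Slow nuclei is therefore a description. DESeq2 did not call Strit1 in either comparison of Slow nuclei (adjusted p = 0.0795 against Type IIb and 0.269 against Type IIa). None of the 66 passed edgeR's or DESeq2's test between Old and Young or between Running and Sedentary samples. By edgeR, 8 and 1 of them had an unadjusted p under 0.05 in whole libraries and 9 and 5 in Type IIb nuclei.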

How the data were processed

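Single-nucleus RNA of 8 libraries was analysed. The authors deposited filtered matrices of raw counts, UMIs per gene and nucleus, 1 per library, with lists of genes and barcodes. Per the submitters' processing notes, reads were counted with Cell Ranger 6.1.2 on mm10 and Seurat 4.1.1 was used downstream. The paper's methods instead give DNBelab C droplets and PISA for the second set, whereas the notes list Cell Ranger for those libraries too. Whether intronic reads were counted is not given in the sources used here. Counts were not corrected for gene length, so levels of different genes were not compared, except as shares of paralogues between fibre types.

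The study's filters were applied to nuclei: over 200 genes, under 6000 genes and under 6% of UMIs from mitochondrial genes. Doublets stayed in and no caller was run. The 10x libraries share 30 to 46 barcodes in each pair, and the barcodes of the second set are serial numbers. Each set was clustered (leidenalg 0.10.2, 2000 variable genes without the calcium genes, 30 components, 20 neighbours, resolution 1). Classes were named from marker lists, with limits set after the clusters had been seen. Myonuclei with at least 3 myosin UMIs, 60% of them from 1 of Myh1, Myh2, Myh4 and Myh7, were typed.

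Nuclei are not replicates, so UMIs were summed per library, or per library and fibre type where there were at least 20 nuclei. Sums were tested in R 4.3.3 with the quasi-likelihood test of edgeR 4.0.16 after filterByExpr and TMM scaling, and p-values were adjusted by Benjamini-Hochberg over all genes tested (threshold 0.05), without 12 mitochondrial and 87 ribosomal protein genes. Fibre types were compared over 25 sums with the library as a term (14 residual degrees of freedom), and groups over 8 sums with the library set as a term (3 residual degrees of freedom). The study tested nuclei with a Wilcoxon test, which was not used. Standard errors are the log2 fold change divided by the root of F. Differences within a set and ranges within libraries are of log2 CPM with 0.5 UMI added and carry no test. Shares have 95% Wilson intervals, which cover counting error only. Detection was compared after thinning to 500 UMIs. The alternatives were DESeq2 1.42.0, RLE scaling, low counts unfiltered, fits without the set as a term or with the compared libraries alone, other typing limits, leaving out the 6% of nuclei with the most UMIs, each library set alone and each library left out. The tests were tried on generated counts with known differences.

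All 10 genes are named in every comparison. Of the wider list, up to 5 called genes in each direction per comparison, those with the largest fold change, could be named, and the 3 most alike genes whose mean log2 CPM reached 4. The members and lists were chosen with earlier results of these data known. Coordinates are on GRCm38, and promoters are RefSeq's for GRCm38.p6.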

Additional observations from a re-analysis of the deposited data

Results flagged for a closer look

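Casq2 in Type IIa nuclei was 245 CPM in Old replicate 2, against 25.0 to 75.5 CPM in the other 6 libraries, and the gap to the nearest of them was 0.574 of the whole range of 7 libraries. The value rests on 11 UMIs in 36 nuclei of the library with the largest share of unnamed nuclei. It was the only outlying value among 30 sets of a gene and a fibre type, and chance gives such a value in about 1 of 20 sets. For 90 pairs of effects of the 10 genes, a group effect in 2 fibre types or a fibre type effect in 2 groups, the direction was read in each library set. In 0 of them was 1 effect positive in both sets and the other negative in both.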

How the results depend on the processing

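Over all alternatives, 235 counts of called genes stayed within 1.5 times the value given and 13 did not. Of the log2 fold changes of single genes, 1675 kept their direction and their side of the threshold, 104 lost the call, 15 gained it and 55 changed sign. Atp2a1, Atp2a2, Casq1, Casq2, Pvalb, Sln and Jph1 were called in Slow against Type IIb nuclei in 17 of 17 alternatives. The cause of the following changes was not tested, beyond the fewer samples in fits of part of the libraries. With the second library set alone, of the 10 genes 5 were called in Type IIa, 0 in Type IIx against Type IIb and 1 in Slow against Type IIa nuclei. Of the wider list, 9 were then called in Slow, 11 in Type IIa and 2 in Type IIx against Type IIb, and 0 in Slow against Type IIa nuclei. The shares of all genes called in fits of part of the libraries are not given here. Counts from such fits are therefore not read as a result about the listed genes. In that set the log2 fold change of Cacna1s was 0.22 in Slow against Type IIb and 0.69 in Slow against Type IIa nuclei, that of Jph2 was -0.12 in the latter, and those of Casq2 and Itpr2 in Type IIx against Type IIb nuclei were -0.056 and -0.20. With the 4 libraries of the comparison alone, 1 of the 10 genes and 1 of the wider list were called in Running against Sedentary whole libraries, where Casq2 was at 0.068, and in Type IIb nuclei Atp2a2 was at 0.16 in Old against Young and Jph1 at 0.019 in Running against Sedentary. Without the library set term, Sln in Old against Young was at -0.88 in whole libraries and -0.96 in Type IIb nuclei, and in Running against Sedentary Type IIb nuclei Atp2a2 was at 0.37 and Jph1 at 0.088. In Slow against Type IIa nuclei, Ryr1 and Cacna1s were at 0.10 and 0.068 with RLE scaling and at 0.098 and 0.067 with DESeq2, Ryr1 was at 0.044 with 10x libraries only, and Jph2 at -0.0088 with no filter on low counts. With the dominant myosin gene at 80%, Ryr1 was at 0.056 there, Sln at -0.34 in Type IIa against Type IIb nuclei and Atp2a2 at 0.16 in Old against Young Type IIb nuclei. With all nuclei whatever their cluster, Sln was at -0.028 in Type IIa against Type IIb nuclei.

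Leaving out each library in turn gave a range of 0 to 1 called genes of the wider list in Running against Sedentary, both in whole libraries and in Type IIb nuclei (1 without Sedentary replicate 2), and of 3 to 9 in Slow against Type IIa nuclei. In whole libraries, Old against Young ranged from -1.74 to 0.94 for Atp2a2, -0.80 to 0.74 for Casq2 and -0.91 to 2.25 for Sln. Running against Sedentary ranged from -0.23 to 0.85 for Ryr1, -0.032 to 0.84 for Cacna1s, -2.04 to 0.23 for Atp2a2, -0.087 to 1.70 for Casq1, -0.98 to 1.16 for Casq2 and -0.63 to 1.02 for Jph1. In Type IIb nuclei, Old against Young ranged from -0.86 to 0.10 for Atp2a1, -1.11 to 1.39 for Atp2a2, -1.30 to 0.25 for Casq2 and -0.84 to 2.09 for Sln. Running against Sedentary ranged from -0.13 to 0.56 for Ryr1, -1.17 to 0.99 for Atp2a2, -0.013 to 1.28 for Casq1, -0.27 to 1.19 for Casq2 and -0.60 to 0.69 for Jph1. In Slow against Type IIa nuclei the ranges were -0.10 to 0.13 for Ryr1, -0.30 to 0.13 for Cacna1s and -0.049 to 0.063 for Jph2, and Sln in Type IIa against Type IIb nuclei ranged from -0.020 to 0.41. Without Sedentary replicate 2, 418 genes were called in Running against Sedentary whole libraries, none of them among the 10. A group with a library left out is a single library, assumed to vary like the other groups. The replicate numbers were given in order of deposition and pair no libraries, while the library set, with 1 library of each group, is a term of the group fits.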
